A study of Mus musculus with 2 samples.

Results

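Plasma cells are the antibody-secreting end stage of the B cell line. In the lactating mammary gland those that make immunoglobulin A (IgA) settle in the connective tissue beside the milk-making epithelium. IgA units are joined by the J chain (Jchain), bound by the polymeric immunoglobulin receptor (Pigr) of the epithelial cells and carried into the milk. An antibody consists of heavy chains, whose constant gene (Igha for IgA, Ighm for IgM, the Ighg genes for IgG) sets its class, and of light chains of either the kappa (Igkc) or the lambda (Iglc) type. Each cell normally makes a single heavy and a single light chain from its own choice of variable (V) segments, and its secretory pathway is enlarged under the transcription factors Prdm1, Irf4 and Xbp1.

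The nuclei described here came from inguinal mammary fat pads of 8 lactating mice, frozen on postnatal day 11 of the pups after the lymph nodes had been cut out, and sequenced together: 1 pooled 10x Genomics RNA library holds all animals, and a hashtag library tells from which animal a nucleus came. The labels name 4 dams with a floxed oxytocin receptor gene (Oxtr flox) and 4 dams with an adipocyte-specific Oxtr knockout (Adipo-specific Oxtr KO), bred at 8 weeks of age on chow. The hashtag reference calls the groups WT and Oxtr-KO; WT was taken as the floxed group, and no source used here names the Cre line behind the adipocyte deletion. Nuclei of some samples, which ones is not said, were washed against free RNA. In adipocyte nuclei Oxtr had 5 UMIs (unique molecular identifiers, the counted RNA molecules) over the 4 WT animals, 1 to 2 each, and 9 over the 4 animals labelled KO, 0 to 4 each, so Oxtr was not lower under the KO label. The counts are too few for a check of the label, and 3′ tags may lie outside the deleted part.

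A nucleus counted as a plasma cell nucleus when at least 500 UMIs and 300 genes and under 5% mitochondrial UMIs were seen, with at least 5 UMIs summed over Igkc, Igha and Jchain, at least 1 UMI of Pou2af1, Lax1 or Prdm1 (regulators found in plasma cells), and at most 1 UMI summed over Pdgfra, Pecam1, Trp63 and Adipoq, which mark fibroblasts, endothelium, myoepithelium and adipocytes. This held for 159 of 20854 nuclei, or 0.762% (exact 95% binomial interval 0.649 to 0.890%, counting error only). Of 345 nuclei with at least 5 UMIs of the first 3 genes, 186 also had one of the 3 factors, and 159 of these met the last criterion. The 3 genes summed to 5 to 127 UMIs in the members, with a median of 22. The edge of the rule was thinly filled: 5 members had exactly 5 such UMIs, and 7 nuclei missed the rule with exactly 4. A further 129 nuclei had enough immunoglobulin UMIs (5 to 164, median 8) and few excluded markers but none of the 3 factors. Of the members, 72 showed 1 of the factors, 62 showed 2 and 25 all 3.

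The nuclei were shallow and poorly tagged. Plasma nuclei held 653 to 32389 UMIs, with a median of 2471 against 4365 in the 20695 other nuclei, and a median of 1259 against 1839 genes. The median mitochondrial share was 0.247% against 0.141%. A hashtag of 1 named animal was called in 58 of the 159 (36.5%), none in 82 (51.6%), more than 1 in 18 and that of an unknown sample in 1; of the other nuclei, 26.9% had none. The gap was also seen within a shared range of depth, from the lower to the upper quartile of plasma nuclei (1591 to 6387 UMIs). There, 59.5% of 79 plasma nuclei and 26.6% of 13418 others had no hashtag. Depth was not matched within that range. Nuclei with no hashtag had a median of 2047 UMIs, against 5015 with a named animal, and the part of depth in the gap was not tested.

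Milk protein RNA was spread over the library, and the members carried it too. Of the 159, 93 (58.5%) showed at least 2 of the secretory luminal genes Elf5, Btn1a1, Xdh, Plpp4 and Elovl5, beside shares among T and NK (57.1%), macrophage (61.9%), fibroblast (63.3%) and endothelial nuclei (63.7%) picked by their own markers. The 7 milk protein genes gave 13.5% of plasma UMIs and 13.3% of those of all other nuclei, and Csn2, Csn1s1, Csn1s2a, Csn3, Wap and Glycam1 each had a UMI in all 159 members. At least 2 markers of fibroblasts were seen in 9 members, of macrophages in 7, of endothelium in 7, of adipocytes in 6, of T and NK cells in 3 and of myoepithelium in 2. The 61 members without at least 2 markers of any of these classes were shallower (median 1641 UMIs), and 49 of them had no hashtag. Milk protein genes, which do not count among the 5 secretory markers, gave 17.1% of the UMIs of the 61, more than the 14.1% in secretory luminal nuclei. Values in these 61 nuclei are given beside the main ones below; they were set apart after the data had been seen.

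The 3 genes of the rule, given as a description only, set the members far from every other class. Summed over nuclei and given per 1000000 UMIs (CPM), Igkc stood at 2799 CPM in plasma nuclei (exact 95% Poisson interval 2685 to 2916) and 47.3 CPM in all others, Igha at 1607 (1521 to 1696) and 26.2 CPM, and Jchain at 1094 (1023 to 1168) and 15.2 CPM. The ratios were 59.2, 61.3 and 72.0, and in the 61 nuclei without other markers 200.6, 174.7 and 212.1. Nuclei with at least 1000 UMIs, 148 of the members and 19862 of the others, were thinned to 1000 UMIs. Of these, 79.4% of plasma nuclei were expected to show an Igkc UMI. The share was 8.59% of T and NK, 5.96% of macrophage and 4.03% of secretory luminal nuclei, cells not known to make kappa chains. Median depths over all nuclei of each class were 2471, 2011.5, 3027 and 4968.5 UMIs in the same order. Unthinned, Igkc was seen in 93.1% of plasma nuclei and 15.0% of all others. Of the 6 markers that came with the rule all were seen; of 16 further plasma cell markers, 8 were at least 4-fold higher in plasma nuclei with at least 20 UMIs there (Irf4, Sdc1, Tnfrsf17, Derl3, Eaf2, Slamf7, Txndc5 and Creld2), and Mzb1 had no UMI in the whole library.

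**Figure D1:**
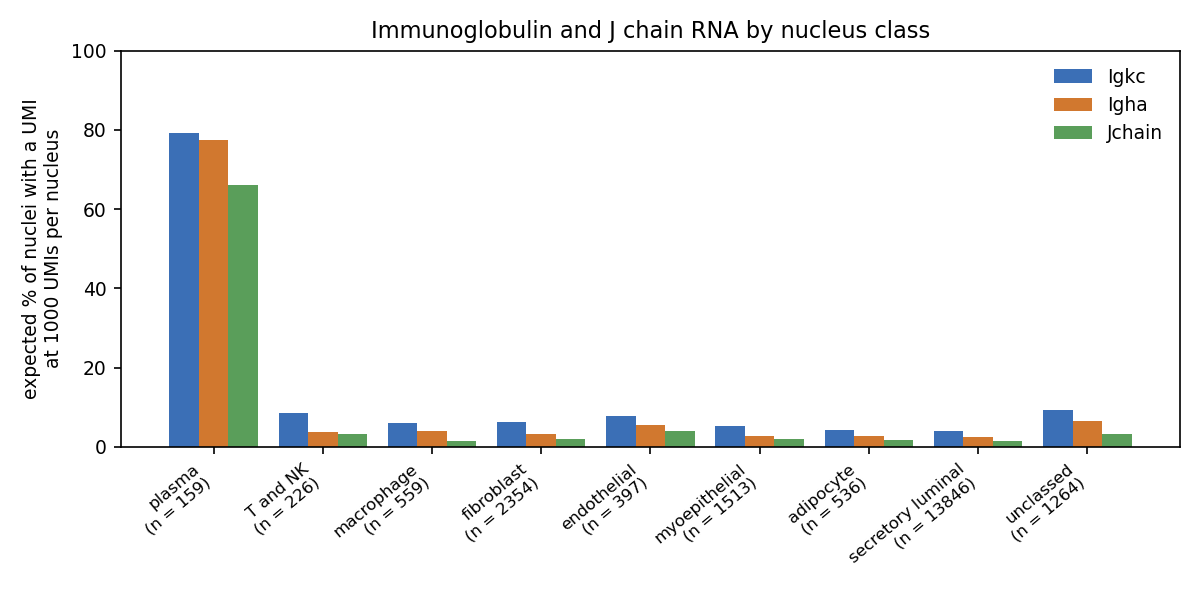
Expected share of nuclei with a UMI of Igkc, Igha or Jchain (vertical axis, percent) after thinning to 1000 UMIs, for plasma nuclei and 8 other classes named by their markers (unclassed: no class reached its markers). Plasma nuclei were chosen by these genes and reach 79.4% for Igkc, and each other class stays under 10% for every bar. The class sizes printed include nuclei under 1000 UMIs, which the shares leave out.

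By heavy chain, Igha led in nearly all members. Igha gave 1306 of 1473 heavy chain constant UMIs (88.7%), Ighm and Ighg2b 71 each (4.82%), Ighg1 12, Ighg2c 7 and Ighg3 6; Ighd and Ighe, the IgD and IgE genes, had none. The rule asked for Igha among 3 genes, so an excess of Igha was partly built in. Of 141 members with at least 3 heavy chain UMIs, Igha led in 135, Ighg2b in 3, Ighm in 2 and Ighg1 in 1, and 94 showed Igha alone. Ighm was concentrated: 10 members held its 71 UMIs, and 1 of them held 43 beside 7 of Igha. Ighg2b was spread thinly instead, over 31 members, 29 of which also had Igha, with a median of 1 Ighg2b UMI beside 6 of Igha. In all other nuclei Ighg2b was at 0.592 CPM, against 87.4 CPM in plasma nuclei. Among nuclei thinned as above, 0.0544% of the others and 9.95% of plasma nuclei were expected to show it. Reads of neighbouring heavy chain genes that share sequence or transcripts cannot be told apart here.

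By light chain, the members fell less cleanly. Kappa gave 68.5% of 3322 light chain constant UMIs and lambda 31.5%, against 17.0% lambda in all other nuclei. The rule counted Igkc but no lambda gene, so the split between kappa and lambda was partly built in. Of 156 members with at least 3 such UMIs, 75 had at least 80% kappa, 11 at least 80% lambda and 70 lay between. The 11 lambda-led nuclei stood apart: they held 1 Igkc UMI in all beside 7 to 135 lambda UMIs each (median 19). Kappa-led nuclei were less exclusive, as 22 of the 75 had no lambda UMI. In the 70 nuclei between, lambda constant UMIs came from Iglc2 (304), Iglc1 (182) and Iglc3 (78). Other nuclei averaged 0.0498 lambda UMIs each and plasma nuclei 6.59, a gap that is an average over nuclei and says nothing of which nucleus made the RNA. Members without markers of another class divided into 30 kappa-led, 3 lambda-led and 28 nuclei between. Iglc2 and Iglc3 are close copies, and no source used here says how reads that match both were counted.

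**Figure D2:**
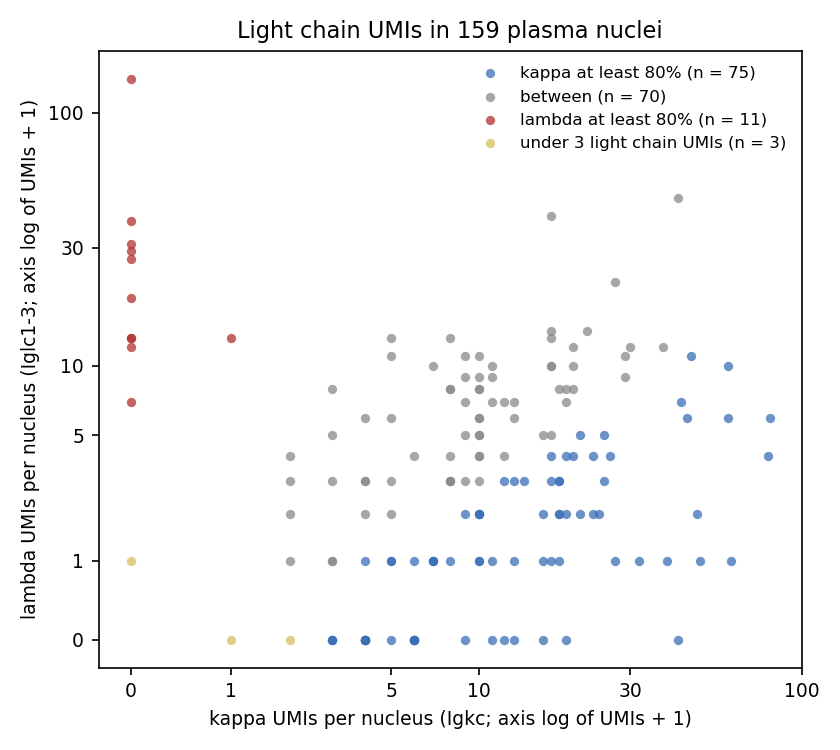
Kappa (Igkc, horizontal) and lambda (Iglc1, Iglc2 and Iglc3, vertical) UMIs of each of the 159 plasma nuclei on axes of the log of UMIs + 1; each point is 1 nucleus. The 11 lambda-led nuclei lie at the left edge with 0 or 1 kappa UMI, while 70 nuclei between the types carry both.

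V segments were seen as UMIs of single genes, and a pair of kappa segments dominated. Of 346 V segments in the gene list, 73 had a UMI in plasma nuclei, 632 UMIs in 113 members; 44 members had at least 3 UMIs of 1 segment, and in 35 of those it took at least 80% of the V UMIs. Igkv1-110 had 225 UMIs in 19 nuclei (1 to 22 each, median 14, at least 3 in 17) and Igkv1-117 had 133 in 14 nuclei (1 to 26, median 7.5, at least 3 in 12). Together they gave 358 of 488 Igkv UMIs (73.4%). UMIs of both were seen in 0 of 159 nuclei, which allows up to 1.89% of nuclei with UMIs of both by counting alone; at a median of 2471 UMIs an RNA can be present and unseen, and the few nuclei with either (19 and 14) limit how often both could be seen. The 33 nuclei with either held 5 UMIs of any other Igkv gene. The rule did not use V segments, but it counted Igkc, the constant gene of kappa chains. The 20695 other nuclei held 45 and 42 UMIs of the 2 genes. Of the 19 nuclei with Igkv1-110, 14 had no hashtag, 1 had more than 1 and 1 that of an unknown sample, and the 3 with a named animal were all from WT animal 1; Igkv1-117 was seen in 5 animals, 3 of the 8 tagged nuclei being from WT animal 1. The lambda segments Iglv1 (37 UMIs in 25 nuclei) and Iglv3 (17 in 15) were mostly seen at 1 UMI, in 10 kappa-led nuclei each.

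The pair are near copies in sequence, shown here because the split between them rests on few bases. Both are taken from the GENCODE M21 transcripts of the build GRCm38 (Igkv1-110 at chr6:68270485-68271267 and Igkv1-117 at chr6:68121046-68121827, both on the plus strand), are 359 bases long from the start codon and agree at 349 positions (97.2%). Bases 61 to 359, counted from the start codon, are shown 5′ to 3′, and capitals mark the 10 positions at which they differ.
Igkv1-110: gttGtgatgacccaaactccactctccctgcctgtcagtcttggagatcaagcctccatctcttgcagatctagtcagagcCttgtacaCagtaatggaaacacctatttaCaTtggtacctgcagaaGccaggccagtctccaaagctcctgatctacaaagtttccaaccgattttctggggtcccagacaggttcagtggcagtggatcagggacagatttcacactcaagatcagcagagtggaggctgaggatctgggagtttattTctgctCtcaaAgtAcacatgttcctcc
Igkv1-117: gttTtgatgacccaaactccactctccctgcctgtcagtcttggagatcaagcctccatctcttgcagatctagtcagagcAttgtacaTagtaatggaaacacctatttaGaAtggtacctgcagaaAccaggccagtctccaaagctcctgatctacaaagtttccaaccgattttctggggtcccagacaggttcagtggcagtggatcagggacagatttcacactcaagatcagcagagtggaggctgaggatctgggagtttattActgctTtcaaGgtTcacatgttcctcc
A somatically mutated copy of either could be counted under the other name, and which V gene a nucleus used is known only as far as the authors' counting assigned it.

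Of 27086 genes seen in the library, 261 were at least 4-fold higher in plasma nuclei with at least 20 UMIs there (0.964%). At least 4-fold lower, where at least 20 UMIs would stand at equal level, were 45 genes (0.166%). The 261 include the 6 markers that came with the rule and other immunoglobulin genes. These shares are the background for the counts of listed genes below. They carry no test, because the same contrast chose the nuclei. The ratio over 9154 genes with at least 10 CPM in other nuclei had a median of 1.00, and of 0.862 in the 61 nuclei without other markers. In bulk sums of nuclei, fewer expressing nuclei and less RNA per nucleus cannot be told apart, so each share of nuclei is given beside its level where it matters. CPM of different genes are not compared, since the RNA captured per gene depends on its length.

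Transcription factors that hold the plasma cell state were among the genes that stood out. Of 15 listed factors and elongation genes, 7 were at least 4-fold higher (9 in the nuclei without other markers), Prdm1 and Pou2af1 among them as genes of the rule. The lymphoid factor Ikzf3 was at 153 CPM against 3.81 (40.1-fold, in 43.4% of plasma and 1.09% of other nuclei). Irf4, required for plasma cell formation, was at 271 CPM (236 to 309) against 23.7 (11.4-fold), and 37.4-fold in the nuclei without other markers. Mef2c reached 12.2-fold, Eaf2, a partner of the elongation factor Ell2, 11.1-fold and the octamer factor Pou2f2 8.86-fold. Some were shared with other immune classes: Ikzf3 was at 114 CPM in T and NK nuclei and Pou2f2 at 88.4 CPM in macrophage nuclei, above its 64.0 CPM in plasma nuclei, while Irf4 was at 19.3 and 28.8 CPM in the 2 classes. Irf4 was higher still in adipocyte nuclei, at 557 CPM, and Mef2c was at 251 CPM in macrophage and 289 CPM in endothelial nuclei beside 529 in plasma nuclei. Xbp1, the factor that enlarges the secretory pathway, was only 2.00-fold higher (528 against 264 CPM, 4.16-fold without other markers), and Ell2 1.86-fold. Zbtb20, a factor of long-lived plasma cells, stood at 1389 and 1377 CPM, a ratio of 1.01.

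Genes of antibody assembly and secretion were shifted broadly but modestly. Of 40 listed genes, 10 were at least 4-fold higher (13 without other markers). Of the 37 with at least 10 CPM in other nuclei, 36 had a ratio above 1, with a median of 1.86 (3.00 without other markers) where all genes had 1.00. Apart from Jchain, a gene of the rule, Tram2, a partner of the protein translocation channel, led with 241 CPM against 15.0 (16.1-fold), followed by the disulfide isomerase Txndc5 (520 against 59.0, 8.82-fold), the stress-induced Herpud1 (7.19-fold), the mannosidase-like Edem1 (6.92-fold), Pdia4 (6.81-fold), Creld2 (6.72-fold), Derl3 (5.02-fold), the chaperone Hsp90b1 (4.98-fold, in 84.9% of plasma and 40.4% of other nuclei) and Ern1, the sensor that splices Xbp1 RNA (4.84-fold). Txndc5 and Tram2 were at 63.1 and 10.8 CPM in the secretory luminal nuclei, which secrete milk proteins. The chaperone Hspa5 was 1.85-fold higher (193 CPM, 164 to 226, against 104). The isomerase P4hb and Fkbp11 had ratios of 0.945 and 1.09. Of 20 genes of amino acid supply and glycosylation none reached 4-fold, with Man1a (2.89-fold) and the fucosyltransferase Fut8 (2.86-fold) the highest; in the nuclei without other markers these 2 did, at 6.90-fold and 5.96-fold.

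Promoters of this group were searched for the endoplasmic reticulum stress element (ERSE: CCAAT, then 9 bases of any kind, then CCACG), a sequence bound by the factors ATF6 and XBP1 together with NF-Y. In the RefSeq promoter table of GRCm38.p6, which spans 250 bases before to 50 after each start and was searched on both strands, 37 of 27025 genes held it (0.137%), and 9 of the 33 listed assembly and secretion genes in the table: Derl3, Hsp90b1, Hspa5, Pdia6, Creld2, Dnajc3, Calr, Canx and Ero1b. The related ERSE-II (ATTGG, 1 base of any kind, then CCACG), which ends in the same letters as ERSE, was in 12 genes (0.0444%), among them Herpud1 and Dnajb11. Of the 33 listed genes, 3 of the 9 with ERSE and 7 of the 24 without it were at least 4-fold higher, with medians of 1.86 and 2.25. The 7 include Jchain, a gene of the rule, whose ratio was built in, and Herpud1, which holds ERSE-II. A link between the element and the ratio was not tested. The windows below show the element in the 3 ERSE genes past 4-fold and in Herpud1, on the gene's strand, 5′ to 3′, with 30 bases on each side and the match, on either strand, in capitals; they lie at chr10:86705503-86705686 (minus strand), chr10:75893212-75893290, chr15:88819490-88819568 and chr8:94386347-94386417 (plus strand), with 2 matches in Hsp90b1.
Hsp90b1: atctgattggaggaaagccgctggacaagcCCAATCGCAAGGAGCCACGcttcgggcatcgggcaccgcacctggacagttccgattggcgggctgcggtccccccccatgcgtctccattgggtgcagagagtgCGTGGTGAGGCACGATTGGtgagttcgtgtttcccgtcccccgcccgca
Derl3: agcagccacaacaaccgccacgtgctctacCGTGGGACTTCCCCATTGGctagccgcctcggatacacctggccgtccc
Creld2: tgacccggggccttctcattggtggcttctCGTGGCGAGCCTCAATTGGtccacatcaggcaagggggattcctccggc
Herpud1: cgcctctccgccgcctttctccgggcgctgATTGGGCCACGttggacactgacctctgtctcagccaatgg
The octamer ATTTGCAT, known from immunoglobulin promoters, was in 532 genes (1.97%) and in none of the 13 listed transcription factors of the table. A match is a description of these letters and not a binding site.

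Some receptors that keep plasma cells alive were prominent by ratio and sparse by count. Of 21 listed survival and surface genes, 8 were at least 4-fold higher (6 without other markers, where counts are fewer), Lax1 among them as a gene of the rule. Of the 9 with at least 10 CPM in other nuclei, 7 had a ratio above 1, with a median of 1.10 (1.31 without other markers). Il6ra, Il6st, Cd27 and Mcl1 had ratios of 0.821, 1.02, 1.00 and 1.32. Tnfrsf17, which encodes the receptor BCMA for the survival factors BAFF and APRIL, had 25 UMIs in 22 plasma nuclei and 29 in the 20695 others (30.8 against 0.272 CPM, 112.9-fold). Its relative Tnfrsf13b (TACI) was at 111 CPM against 4.42 (25.1-fold), whereas Tnfrsf13c, the BAFF receptor of B cells, had no UMI; a count of 0 allows up to 3.69 CPM, far above its 0.0939 CPM in other nuclei, so a difference could not be seen at this depth. Slamf7 was 28.7-fold and the syndecan Sdc1, the usual surface marker of plasma cells, 13.7-fold higher. Bcl2 (7.37-fold), Cd44 (7.72-fold) and Ptprc (4.54-fold) were shared with other leukocytes: Ptprc was at 197 CPM in plasma, 494 in T and NK and 502 in macrophage nuclei, and Bcl2 at 202 and 301 CPM in plasma and T and NK nuclei.

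Of 14 homing receptors, 4 were at least 4-fold higher. Without other markers 2 were, since Itgal and Selplg, at 19.9-fold and 18.5-fold there, had 5 and 7 UMIs and so fell short of 20. The integrin subunit Itga4, which binds VCAM1 and MAdCAM-1, was at 304 CPM against 11.1 (27.3-fold, in 64.2% of plasma and 3.10% of other nuclei), Itgal was 17.6-fold, Ccr9, the receptor for the chemokine CCL25, 11.3-fold and Selplg 7.77-fold higher. Itga4 was also at 161 CPM in T and NK and 106 in macrophage nuclei, and Ccr9 at 50.4 CPM in plasma against 6.79 and 5.24 in those classes. Itgal was at 40.6 CPM in plasma and 41.3 in T and NK nuclei, and Selplg at 27.1 CPM in plasma against 38.5 in T and NK and 35.5 in macrophage nuclei. Ccr10, the receptor for the mammary chemokine CCL28, had 4 UMIs in plasma nuclei, too few to read a level from. The ligand Ccl28 itself was at 1477 CPM in secretory luminal nuclei and Pigr at 375. In plasma nuclei they stood at 1003 and 224 CPM, and at 0.0731 and 0.342 of the level of other nuclei in the 61 members without other markers. The 61 were chosen for few secretory luminal markers, so a low level of epithelial genes there was partly built in. Of 13 such ligands and epithelial genes none was at least 4-fold higher in plasma nuclei.

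Few genes of B cells stood out. Of 21 listed genes, 1 was at least 4-fold higher (2 without other markers): Ralgps2, at 239 against 14.4 CPM (16.6-fold, in 57.9% of plasma and 5.44% of other nuclei). Bach2, a repressor that holds B cells short of the plasma cell stage, was 2.50-fold higher, at 112 against 44.8 CPM, and is the second gene past 4-fold in the nuclei without other markers, at 323 CPM from 35 UMIs. Pax5, Ms4a1, Cd22, Fcer2a and Spib had no UMI, but each was under 1 CPM in other nuclei too, below the 3.69 CPM that a count of 0 allows here. The class II antigen genes H2-Aa, H2-Ab1 and H2-Eb1 summed to 128 UMIs, of which 9 nuclei held 103; 4 of the 9 also carried macrophage markers. The markers of T and NK cells summed to 64.0 CPM in plasma and 26.4 in other nuclei, and to 0 in the 61 nuclei without other markers. Their part in the values of the other 98 was not tested. The 61 were chosen for few markers of these classes, so low sums there were partly built in. Macrophage markers summed to 193 and 188 CPM (36.9 without other markers), fibroblast markers to 188 and 426, myoepithelial markers to 83.7 and 382 and adipocyte markers to 293 and 379. The markers Klra2, Lair1 and Fyb of a myeloid class summed to 272 CPM in plasma and 71.4 in other nuclei, and to 276 in the 61 nuclei. Of these, Klra2 was 6.21-fold higher, with 64 UMIs in 10 nuclei, and 1.45-fold in the 61 nuclei, where Lair1 and Fyb were 5.77-fold and 3.95-fold; the part of this class in the values was not tested.

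**Figure D3:**
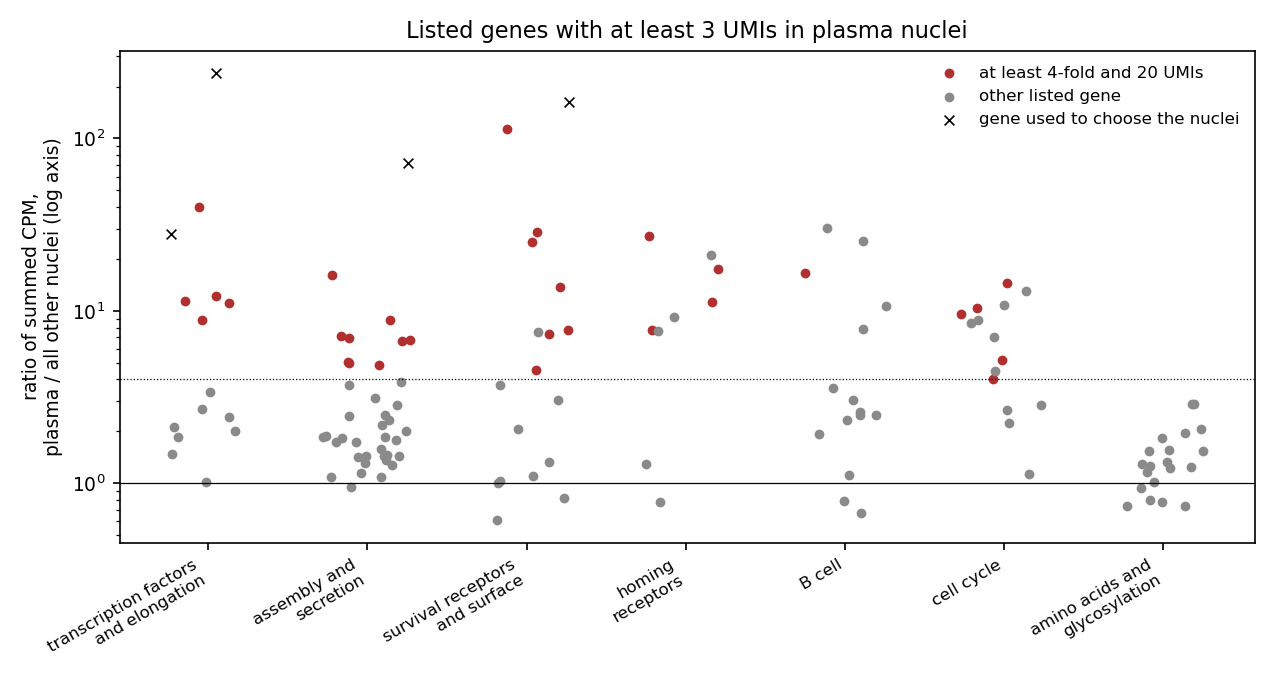
Ratio of summed CPM in plasma to all other nuclei (log axis) for genes of 7 lists with at least 3 UMIs in plasma nuclei; each point is a gene, the dotted line is 4-fold, and crosses are genes used to choose the nuclei. Survival and surface genes reach from under 1 to over 100. Factor genes reach from 1.01 (Zbtb20) to over 100, the latter only for Pou2af1, a gene of the rule. The assembly and secretion genes lie mostly between 1 and 10, and the amino acid and glycosylation genes stay under 4.

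The 25 genes with the highest ratios outside the rule and the immunoglobulin segments (at least 20 UMIs, in at least 10% of members) were often models without a function. Model names belong to 12 of them. All 25 had a higher level in plasma nuclei than in each of the 8 other classes, which the choice by highest ratio largely built in. Gm30211, with 897 CPM against 4.36 (205.8-fold) in 129 of the 159 nuclei, overlaps Igkc and its 5 joining segments on the same strand in GENCODE M21. Reads of Igkc RNA and of Gm30211 cannot be told apart where they overlap. 2010309G21Rik (261.9-fold, 31 nuclei) lies antisense to Iglc1, Iglc3 and Iglv1. Gm43388 (146.3-fold, 54 nuclei) lies within 100 kb of the lambda segment Iglv3 but overlaps no immunoglobulin gene. Gm56536 (205.0-fold, 100 nuclei), Gm51802 and Gm56600 are not in that annotation. 5830418P13Rik (164.5-fold, 85 nuclei) and Bfsp2 (112.9-fold, 39 nuclei) overlap each other on opposite strands. Away from the immunoglobulin genes, 2 calcium channels, a calcium pump and a potassium channel subunit were in the list. The T-type calcium channel gene Cacna1h was at 98.4 CPM against 0.714 (137.9-fold, 59 nuclei), the R-type channel gene Cacna1e at 448 against 8.84 (50.7-fold, 105 nuclei), the potassium channel subunit Kcnmb4 45.5-fold and the endoplasmic reticulum calcium pump Atp2a3 53.4-fold higher. The others with a gene name were Kbtbd12, Tnfrsf17, Myo1h, Rnase6, Nuggc, a gene of germinal centre B cells, Tmem154, the actin bundler Pls1 and Sgpp2, at 45.5 to 131.0-fold.

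Cell cycle genes were seen in a minority of the members. At least 3 of 18 such genes had a UMI in 29 of the 159 (18.2%, exact 95% binomial interval 12.6 to 25.1%), against 249 of the 20695 others (interval 1.06 to 1.36%), 14 of 226 T and NK nuclei (6.19%) and 38 of 559 macrophage nuclei (6.80%). Among the nuclei without other markers, at a median of 1641 UMIs, the count was 8 of 61 (13.1%, 5.84 to 24.2%). Thinned to 1000 UMIs, 12 of 148 plasma and 54 of 19862 other nuclei remained (8.11% and 0.272%). Of the 18 genes, 5 were at least 4-fold higher in the sum: the mitotic motor Kif11 (9.63-fold), the topoisomerase Top2a (65 UMIs in 29 nuclei, 10.4-fold), Cenpf (14.6-fold), and the replication genes Mcm6 (5.19-fold) and Hells (4.01-fold); Mki67 was 2.22-fold. In the nuclei without other markers only Top2a (26.4-fold) reached 20 UMIs and 4-fold; Kif11, Cenpf and Mcm6 were 19.5-fold, 37.9-fold and 14.8-fold there on 8 to 10 UMIs each, and Hells 3.76-fold on 3. The 29 nuclei, chosen by these genes, held 58 of the 65 Top2a UMIs. Genes that this split did not use stood as follows: Igkc was at 1690 CPM in the 29 against 3150 CPM in the other 130 members, Jchain at 681 against 1224, Igha at 1419 against 1666, Tnfrsf17 at 15.4 against 35.6 (3 and 22 UMIs), Edem1 at 307 against 368 and Ell2 at 768 against 593 CPM. Their median depth was 3084 against 2389 UMIs, and 8 of the 29 were free of markers of another class; the part of these markers in the values was not tested.

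**Figure D4:**
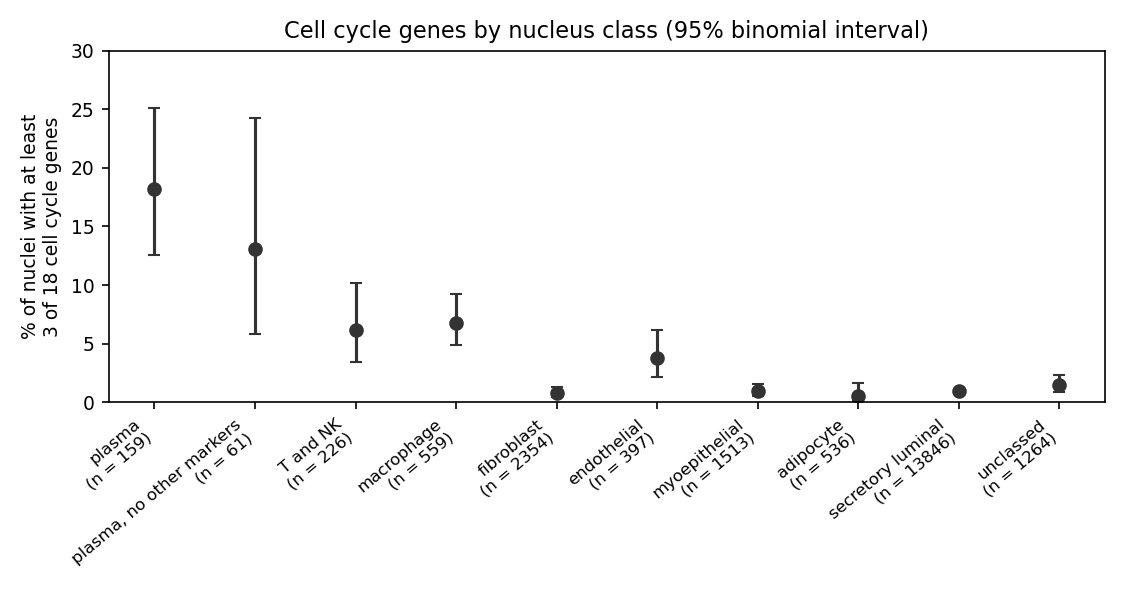
Percent of nuclei with UMIs of at least 3 of 18 cell cycle genes (vertical axis) in plasma nuclei, in those without another class's markers and in 8 other classes; bars are exact 95% binomial intervals. Plasma nuclei lie at 18.2%, macrophage and T and NK nuclei between 6 and 7%, with no correction for depth.

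The design also asks whether plasma nuclei differ between dams with and without the adipocyte deletion, which the 58 nuclei with a named animal can address, the animal being the replicate. WT animals 1 to 4 had 15, 8, 8 and 5 plasma nuclei, or 0.878, 0.493, 0.397 and 0.361% of their 1385 to 2013 nuclei. Animals 1 to 4 labelled KO had 4, 9, 2 and 7, or 0.208, 0.536, 0.161 and 0.492% of 1246 to 1921. The groups overlapped: the highest animal labelled KO exceeded 3 of the WT animals. The means were 0.532 ± 0.237% and 0.349 ± 0.192% (SD, n = 4 each), a difference of -0.183 percentage points that did not pass a two-sided exact permutation test (p = 0.257, the smallest possible being 0.0286). Without WT animal 1 the difference was -0.0679, and in the nuclei without another class's markers, 6 in each genotype, it was 0.0131 with the opposite sign.

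**Figure D5:**
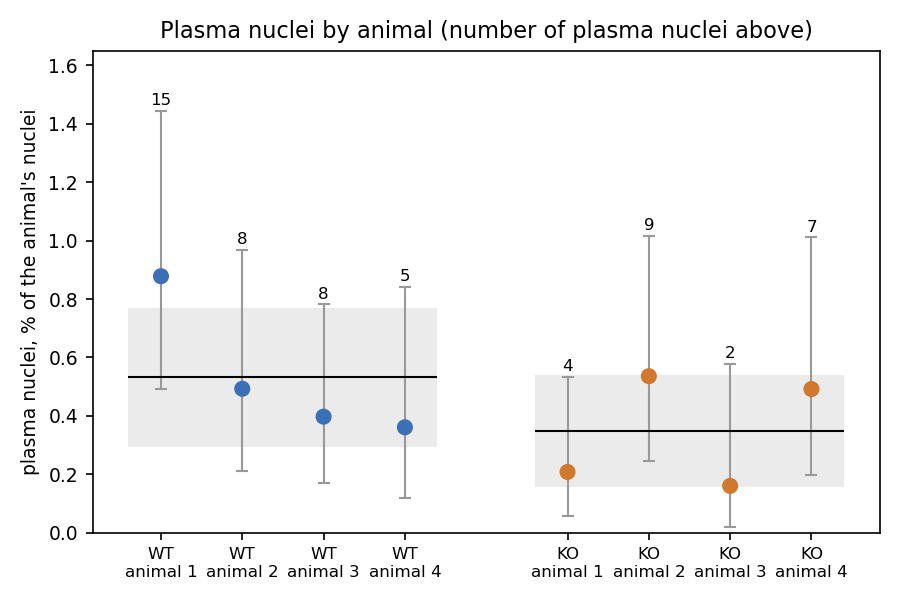
Plasma nuclei as a percent of each animal's nuclei (points; bars are exact 95% binomial intervals, the number of plasma nuclei is printed above), with the mean (line) and 1 SD (band) of the 4 WT animals and of the 4 animals labelled KO. The values of the groups overlap between 0.361 and 0.536%.

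The make-up of the tagged plasma nuclei was likewise not separated by genotype. Igkc stood at 1086 to 2559 CPM in the plasma nuclei of WT animals and at 1043 to 3555 CPM in those of animals labelled KO. Igha gave 87.6, 88.6, 93.6 and 91.4% of heavy chain constant UMIs in WT animals 1 to 4, from 35 to 131 UMIs, and 88.9 and 97.5% in animals 1 and 4 labelled KO; in animal 2 labelled KO all 132 were Igha, and animal 3 labelled KO had 7 such UMIs and was left out. The means were 90.3 ± 2.74% (SD, n = 4) and 95.5 ± 5.83% (SD, n = 3), with an exact permutation p of 0.171. Lambda gave 68.1% of light chain UMIs in WT animal 2 and 27.3 to 28.8% in the other WT animals, and 62.3, 31.9, 36.4 and 34.4% in those labelled KO, so that 1 animal of each group stood high. Single nuclei carried part of these values. Without the nucleus of most lambda UMIs, WT animal 2 (135 UMIs in that nucleus) stood at 39.9% and animal 1 labelled KO (27 UMIs) at 32.4%. Treated alike, the other WT animals stood at 15.9 to 26.6% and the others labelled KO at 13.9 to 23.0%. The same animals thus stayed the highest of their groups. Irf4 stood at 251, 243, 382 and 190 CPM in the plasma nuclei of the WT animals and at 408, 203 and 169 CPM in animals 1, 2 and 4 labelled KO, with no UMI in animal 3. In all other nuclei of the same animals Igkc was at 30.9 ± 7.49 and 31.7 ± 6.42 CPM, Igha at 19.6 ± 3.57 and 20.6 ± 4.93, and Jchain at 10.8 ± 4.08 and 12.5 ± 2.42 (SD, n = 4 each; exact permutation p = 0.886 for each after Benjamini-Hochberg adjustment over 3 genes).

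A test over all genes within plasma nuclei was planned for at least 3 animals of each genotype with at least 5 plasma nuclei, and was not made because only 2 animals labelled KO had that many. Fitted instead on all 8 animals, with 5453 to 87529 UMIs each, edgeR's quasi-likelihood test called 0 of 563 genes (0%) at an adjusted p under 0.05, while 27 had an unadjusted p below that value. DESeq2 also called 0 and had 16 such genes. None of 49 listed genes tested was called, with 2 at an unadjusted p under 0.05. The 5 genes with the smallest p, none of which passed, were Celf2, G0s2, Elmo1, Dip2b and Rab30. Celf2 was at 719 CPM in WT and 366 CPM in the animals labelled KO (168 and 38 UMIs), a log2 difference of -1.13, and Rab30 at 385 and 799 CPM (0.89), each with an adjusted p of 0.973 by edgeR. The plasma rule used no genotype, so this is a test of values that the choice of nuclei did not fix, in few nuclei per animal.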

How the data were processed

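Nuclei of 8 dams were measured as 1 pooled RNA library and 1 hashtag library. The authors deposited raw UMI counts per gene and nucleus and a count of reads per hashtag UMI, per the file headers; fastp and Cell Ranger 7.2.0 with the build GRCm39 are named in the submitters' processing notes. The matrix held 21805 barcodes and 107910356 UMIs, of which the filters on UMIs (500), genes (300) and mitochondrial share (5%) kept 20854 barcodes. Hashtags were assigned by Seurat 5.3.0's HTODemux after a centred log-ratio transform over the barcodes (9 of 10 hashtags, positive quantile 0.99). Nuclei with several hashtags stayed in the description, as the rule takes all nuclei, and left the genotype comparison. The calls depend on this rule: 1246 to 2013 nuclei per animal here, 72 to 1890 with a ratio of hashtags. No source used here gives the annotation or how hashtag reads were assigned.

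The members, lists and classes were chosen with earlier results of these data known. Classes took the first set of markers met, in the order T and NK, macrophage, fibroblast, endothelial, myoepithelial, adipocyte, secretory luminal. Named genes were list members, the 25 highest ratios (at least 20 UMIs, at least 10% of members) and, by genotype, the 5 smallest p. Plasma against other nuclei is description: ratios of summed CPM, with a floor of 3 UMIs. Animals were compared by exact permutation tests, and sums by edgeR 4.0.16 (TMM, filterByExpr) and DESeq2 1.42.0, adjusted by Benjamini-Hochberg. On simulated counts for that comparison of 563 genes, edgeR found 94% of 200 genes changed 4-fold and called 1 unchanged gene. The simulated spread between animals was a fixed setting, not estimated from these sums. The 94% therefore does not say what share of changed genes would be found in these data. Whether each hashtag marks 1 animal is taken from its name; p-values cover the spread between these animals.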

Additional observations from a re-analysis of the deposited data

How the results depend on the processing

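The share of plasma nuclei by genotype kept its sign and stayed outside the threshold in 17 alternatives. Among these are the replicate block below, in which no call could arise, and the ratio rule for hashtags. That rule left 6 plasma nuclei in WT animals and 17 in those labelled KO. KO animal 1 had 4 plasma nuclei in the main calls, 11 with the hashtag transform within each barcode, 2 with all 10 hashtags and 10 with the ratio rule. Leaving out each animal gave differences of -0.2455 to -0.06794 percentage points. Counting only nuclei without another class's markers, an alternative chosen after seeing the data, turned the difference to 0.01308. The Igha share difference ranged from 2.919 to 8.474 percentage points without 1 animal. It turned to -1.606 when the hashtag transform ran within each barcode and to -0.8913 with the ratio rule for hashtags. Both ends of that range and the first turn rest on 4 WT animals against 2 labelled KO, the second turn on 2 against 2. The smallest exact permutation p these numbers allow is 0.0667 and 0.333, so no call could arise. In all other nuclei the differences in CPM never passed the threshold (the smallest exact p was 0.05714, adjusted 0.1714, for Igha at 2.65 with the transform within each barcode), and their sign turned as follows: with the ratio rule Igkc to -4.554, Igha to -2.269 and Jchain to -1.684; with all 10 hashtags Igkc to -1.069 and Igha to -2.99; with at least 2 of the 3 factors Igkc to -0.3451. Without 1 animal they ranged from -2.367 to 4.165 (Igkc), -1.28 to 2.756 (Igha) and 0.3621 to 3.516 (Jchain); the sign turned for Igkc without WT animal 3 (-1.056), WT animal 4 (-1.173) and KO animal 4 (-2.367), and for Igha without WT animal 4 (-0.01929) and KO animal 4 (-1.28). The cause of these turns was not tested.

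With the replicate number as a block, the paired difference in plasma share was -0.1832 (exact p = 0.5); the smallest p such pairs allow is 0.125, or 0.25 for the Igha share, so that no call could arise and this says nothing of stability; same-numbered animals deviated together with correlations of 0.189, -0.0325, 0.269 and 0.243, so the numbers were not taken to pair them, and only numbers 3 and 4 correlated best with their own. The test over genes in plasma nuclei had no main fit: with all 10 hashtags 3 animals of each genotype had at least 5 plasma nuclei, and edgeR called 0 of 463 genes (26 at an unadjusted p under 0.05). Its other settings (other scaling, no filter on low counts, at least 10 nuclei, fewer animals, the block, other rules) were not run for want of that fit. Depth limits what 159 nuclei with a median of 2471 UMIs can show: a gene under 3.69 CPM can be missed entirely, and 2 to 15 nuclei per animal leave only large differences in reach.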
